A study of Paspalum vaginatum with 72 samples.

Results

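Late embryogenesis abundant (LEA) proteins and dehydrins were followed through salt stress in leaves and roots of seashore paspalum (Paspalum vaginatum), a halophytic turfgrass. Members were taken by name: a gene belongs to the set where its Swiss-Prot match, or its NR match where it has no Swiss-Prot name, contains "late embryogenesis abundant", "dehydrin", "embryonic abundant protein" or "water stress-inducible protein Rab21". This rule found 22 of the 27743 gene models, 21 through the first phrase, 1 through "dehydrin" and 0 through the others. Swiss-Prot named 18 of them and NR the other 4. The names are closest matches in other species, and the rule uses names only.

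LEA proteins are small, mostly very hydrophilic proteins that accumulate in seeds as they dry and, in leaves and roots, during drought, salt or cold. Many are unfolded in water and are thought to shield other proteins and membranes when cells lose water. Dehydrins are the LEA family with lysine-rich segments that bind membranes, group 3 LEA proteins carry repeats of 11 residues that fold into helices on drying, and Em proteins are the small abundant proteins of cereal embryos. Many of these genes are induced by abscisic acid (ABA), the hormone of water deficit, through bZIP transcription factors. The Lea14-A type is different, being a folded and less hydrophilic protein.

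RNA was sequenced from leaves and roots of the salt-tolerant accession USA17-18 (written UAS 17–18 in the methods) and the salt-sensitive accession USA17-26, without salt (time 0, called non-stressed) or with 400 mM NaCl for 5 different times from 8 h through 12, 24 and 48 h up to 5 days, in 24 groups of 3 libraries. The plants were rooted from stolons in hydroponic containers. The series text and the methods differ on the age of the plants and on how the salt was given: the former gives 400 mM NaCl for these times, while the latter raises the salt in daily steps and collects stressed and non-stressed plants on day 5. The labels hold no control for the later times, and no source used here gives the hour of day at harvest, so the time with salt and the hour or age at collection cannot be told apart.

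The values were FPKM, fragments scaled to transcript length and to all mapped fragments, which is a level per length. Their sum in a library ran from 671959 to 774486, and 17555 to 20676 genes reached 1 FPKM. The read totals are unknown; from the steps between low values of 43 genes, the relative depth of a library lay between 0.743 and 1.47, the median library being 1. Of the 36 libraries labelled tolerant, 6 went against their label: genes seen only in the tolerant accession in the other tissue lay at 0.9 to 31.3% of their tolerant level there, against 78.6 to 139.2% in the other 30 libraries and 0% in sensitive libraries. Genes seen only in the sensitive accession lay at 2.5 to 4.9% of their sensitive level in the leaf libraries among them and at 59.1 to 63.7% in the root libraries. These were replicate 1 of leaves at 8 h, all 3 leaf libraries at 12 h and replicate 1 of roots at 8 h and at 12 h, and tolerant leaves at 12 h are therefore written as leaves labelled tolerant. Among the members' values, replicate 1 of non-stressed tolerant leaves and replicate 3 of sensitive roots at 5 days stood apart from their replicates. Fits without the 6 libraries against their label, and without these 2, were chosen after the data were seen. Their values stand beside many of the counts and differences that they moved, and not beside all. Leaf libraries held the leaf markers (chlorophyll-binding proteins, Rubisco small subunit and enzymes of C4 photosynthesis), 22 genes that summed to 11784 to 47499 FPKM in non-stressed leaves and to 389.5 to 530.3 FPKM in non-stressed roots. Over all libraries the sums ran from 1131 to 47499 FPKM in leaves and from 363 to 2671 FPKM in roots. They overlapped through tolerant leaves at 8 h and leaves of both accessions at 12 h. The 11 root markers were Casparian strip proteins, a nicotianamine synthase and genes with "peroxidase 3" in the name. Those words also took in genes not named for roots, such as a peroxisomal L-ascorbate peroxidase. The 11 summed to 113.5 to 1309 FPKM in roots and to 101.8 to 449.8 FPKM in leaves, so neither list separated the tissues in every library.

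For each tissue a limma model of log2(FPKM + 1) was used, over 22551 genes in leaves and 22194 in roots with at least 1 FPKM in at least 3 libraries, and differences below are on this scale, where they understate the change of low genes. A gene rose or fell where the p-value, adjusted by Benjamini-Hochberg over all tested genes, was at most 0.05 and the difference at least 1.5 in size. Of the 22 members, 17 were tested in leaves, 15 in roots, 14 in both and 4 in neither. In roots 8 of the 15 and in leaves 5 of the 17 lay under 1 FPKM in every non-stressed library, so they passed the filter only through salt-treated libraries, and counts over tested members are a description. Without the non-stressed leaf library that stood apart the number in leaves was 9. In such bulk tissue a change in the cells that carry an mRNA and a change in its amount per cell cannot be told apart.

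The members made up 0.03 to 0.05% of all FPKM before salt. After salt they made up at most 1.37%, in a library of sensitive roots at 24 h. Summed over the 22 members, the 12 non-stressed libraries held 224 to 389 FPKM. The 3 libraries of sensitive roots at 24 h held 6971, 7825 and 9733 FPKM, the highest of all groups, and the 3 libraries of tolerant roots at the same time 808, 1104 and 2189 FPKM, so that the accessions did not overlap. In tolerant roots the sum was highest at 8 h, between 3019 and 4613 FPKM, where sensitive roots lay between 693 and 2781 FPKM. In leaves the sums at 24 h overlapped, 1671 to 2293 FPKM in the tolerant and 1425 to 4841 FPKM in the sensitive accession. A single gene, LEA group 3 (emFS1.189), gave 65.9 to 66.9% of the members' sum in sensitive roots at 24 h.

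**Figure D1:**
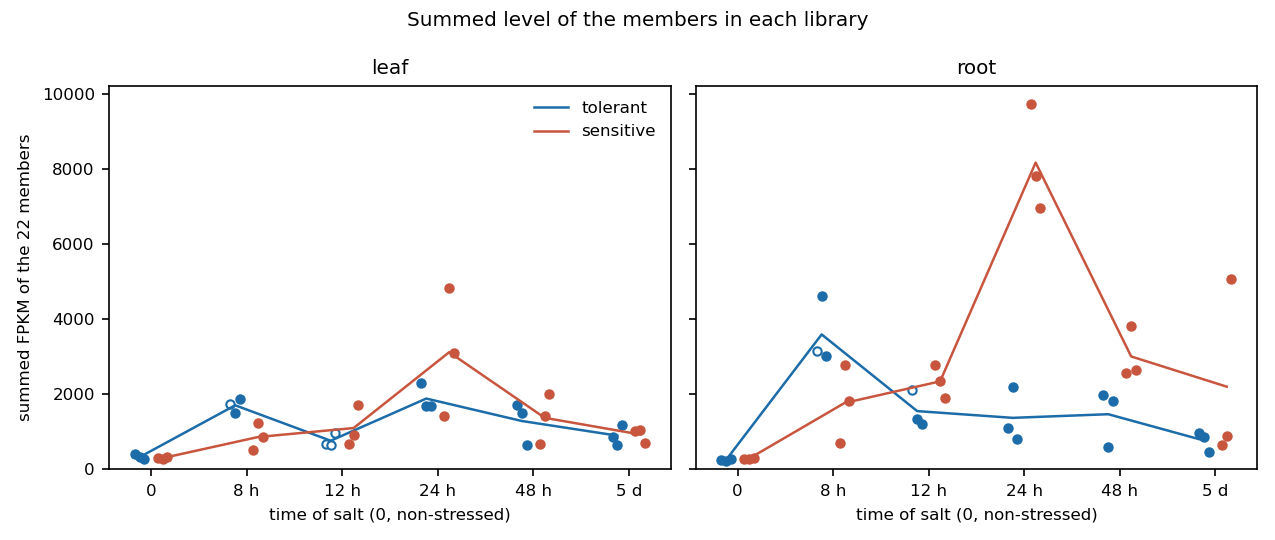
Summed FPKM of the 22 members (y axis) against the time of salt (x axis) in leaves (left) and roots (right); each point is 1 library, lines join the means of 3 libraries, and open points are the 6 libraries that go against their accession label. The sum in sensitive roots reaches 6971 to 9733 FPKM at 24 h, while tolerant roots are highest at 8 h, at 3019 to 4613 FPKM.

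**Figure D2:**
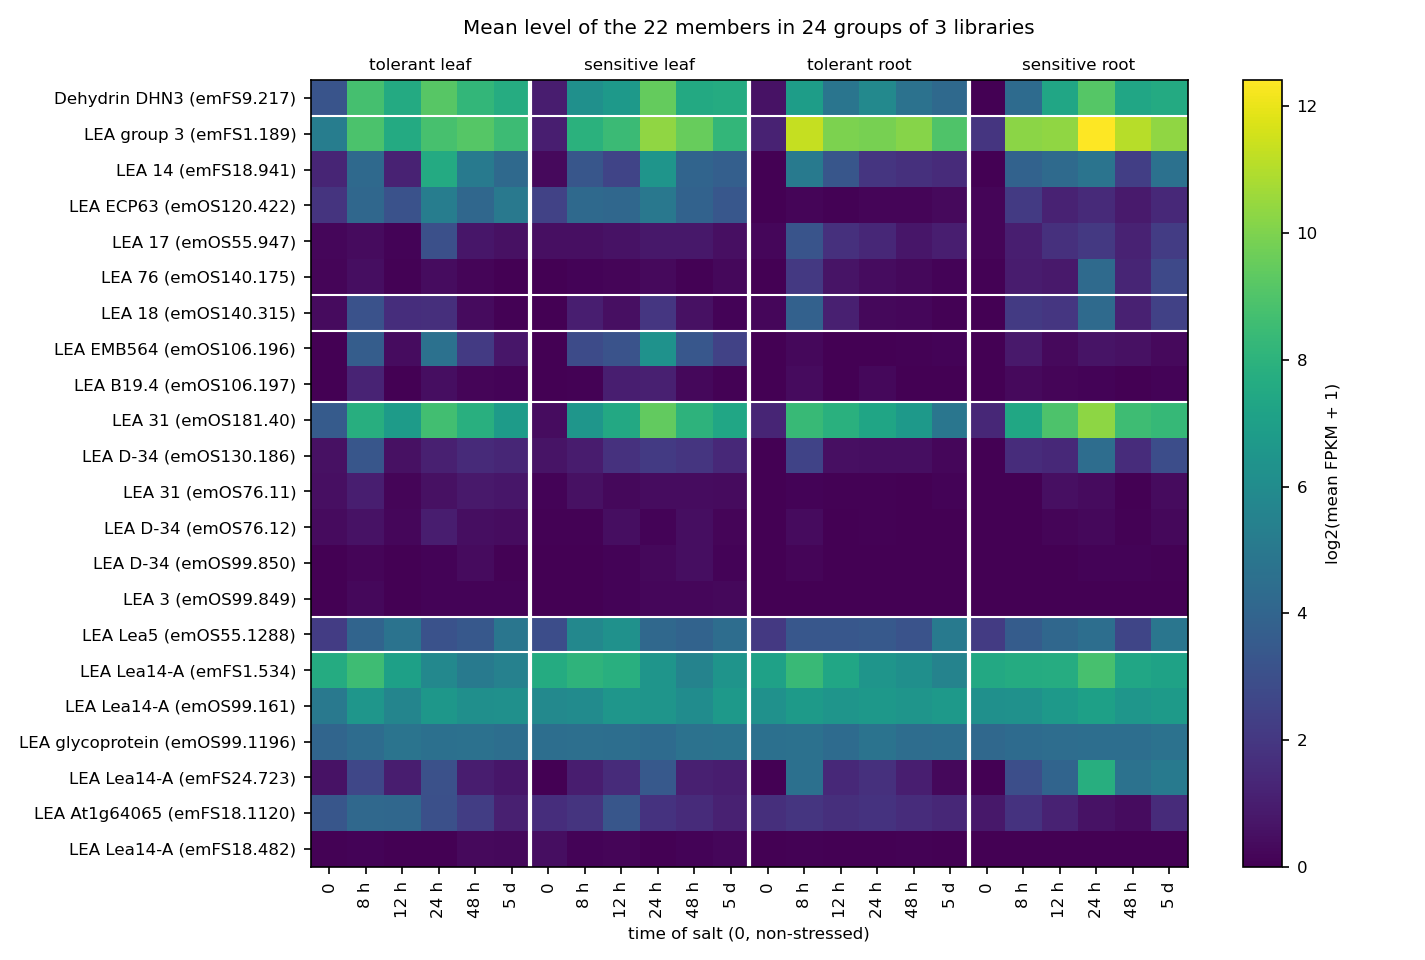
Mean level of each member as log2(mean FPKM + 1) (colour) in the 24 groups (columns, 3 libraries each), with members in rows by family and white lines between families. In 7 of the rows the genes rise in both tissues and accessions, while 4 rows of the seed maturation family stay near 0 in every group.

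More members rose in each salt comparison than the share of all genes that rose. In tolerant roots 9 of the 15 tested members rose at 8 h (6.53% of all tested genes rose there), 4 at 12 h (4.73%), 4 at 24 h (4.6%), 4 at 48 h (4.35%) and 5 at 5 days (2.99%). In sensitive roots 7 rose at 8 h (5.56%), 7 at 12 h (5.66%), 10 at 24 h (4.51%), 5 at 48 h (4.15%) and 6 at 5 days (7.67%). The count was thus highest at 8 h in tolerant and at 24 h in sensitive roots. In tolerant leaves 10 of the 17 tested members rose at 8 h (6.9%), 9 at 24 h (7.6%), 6 at 48 h (6.67%) and 6 at 5 days (4.73%), and 4 rose in the leaves labelled tolerant at 12 h (7.96%). In sensitive leaves 7 rose at 8 h (1.29%), 8 at 12 h (5.38%), 8 at 24 h (7.21%), 5 at 48 h (4.93%) and 5 at 5 days (3.82%).

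Without the libraries against their label 11 members rose in tolerant leaves at 8 h, 5 in tolerant roots at 12 h and 6 in sensitive roots at 8 h. Tolerant leaves at 12 h could not be fitted, and the other counts were the same. Without the libraries that stood apart 10 rose in tolerant leaves at 24 h, 5 in leaves labelled tolerant at 12 h, 5 in tolerant roots at 24 h and 8 in sensitive roots at 12 h. The remaining counts of risers other than that of sensitive roots at 5 days were the same. Sensitive roots at 5 days then had 5 members that rose and 1, emFS1.534, that fell. In fits without replicate 1 or 2 of that group 10 and 9 members were called where 6 were called with all libraries.

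Leaf markers moved with salt in the same libraries. Of the 21 tested in leaves, 17 fell and 2 rose at 1 or more times in the tolerant and 13 fell and 3 rose in the sensitive accession. Their sum went from 35805 to 47499 FPKM without salt to 1537 to 2630 FPKM at 8 h and 1475 to 2813 FPKM at 12 h in leaves labelled tolerant. In sensitive leaves it went from 11784 to 31136 FPKM to 1131 to 2012 FPKM at 12 h. At 5 days the sums were 26907 to 42483 FPKM in tolerant and 15847 to 24552 FPKM in sensitive leaves. Of the 19 tested in roots, 6 rose and 0 fell in the tolerant and 15 rose and 1 fell in the sensitive accession, where their median difference was highest at 5 days (3.27). The part of these changes in the members' counts was not tested.

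Over all salt times 10 members rose in roots of each accession, and they were the same 10, where 9.77% of all tested genes rose in tolerant and 11.9% in sensitive roots. In leaves 12 members rose in the tolerant accession (15.3% of all genes) and 10 in the sensitive accession (10.4%), with 9 shared. In tolerant leaves 2 of the 17 tested members fell (11.8%), near the share of all genes (11.7%). In sensitive leaves 1 fell (5.88%, against 17.5% of all genes), and in tolerant roots 1 of 15 (6.67%, against 9.46%). In sensitive roots limma called 0 (11.4% of all genes), and 1 member was lower at 5 days at an unadjusted p under 0.05. Members under 1 FPKM in every non-stressed library, 5 in leaves and 8 in roots, could not fall past the threshold. These counts therefore cannot show that members fell less often than other genes. There were 7 genes that rose in both tissues of both accessions: dehydrin DHN3 (emFS9.217), LEA group 3 (emFS1.189), LEA 14 (emFS18.941), LEA 18 (emOS140.315), LEA 31 (emOS181.40), Lea5 (emOS55.1288) and the Lea14-A gene emFS24.723. The median difference of the tested members was largest in sensitive roots at 24 h, 4.20 against -0.17 over all tested genes, and was 2.5 against -0.07 in tolerant roots at 8 h. Over the 20 salt comparisons the median over all genes ran from -0.57 to 0.19 in leaves and from -0.17 to 0.03 in roots, and the members' differences are to be read relative to these shifts.

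Dehydrin DHN3 (emFS9.217, chromosome 9, 35321579 to 35322640, minus strand; the sources used here name no genome build) rose at all 5 salt times in both tissues of both accessions. In sensitive roots it was listed at 0, 0.06 and 0 FPKM without salt and at 569, 684 and 442 FPKM at 24 h, a difference of 9.09 (SE 0.71, adjusted p = 1.49e-10). In tolerant roots it stood at 0.61, 0.36 and 0.55 FPKM without salt and was highest at 8 h, at 143, 149 and 64 FPKM (difference 6.22, SE 0.71, adjusted p = 1.02e-07, and 6.04 without the library against its label). No salt-treated root library overlapped the non-stressed ones at these times. In leaves it reached 838, 470 and 426 FPKM in the tolerant and 256, 1260 and 622 FPKM in the sensitive accession at 24 h, with overlapping libraries, from 22.4, 1.91 and 0.28 and from 0.61, 0.48 and 1.8 FPKM without salt. The 22.4 FPKM belong to the non-stressed leaf library that stood apart, and without it the difference at 24 h in tolerant leaves was 8.16 where it was 6.96 (SE 0.78, adjusted p = 5.36e-08) with it.

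The group 3 family of 5 genes held the most abundant member. LEA group 3 (emFS1.189, chromosome 9, 44285361 to 44286834, plus strand) rose at every salt time in both tissues of both accessions. In sensitive roots it went from 0.69, 5.70 and 1.87 FPKM without salt to 6511, 5206 and 4593 FPKM at 24 h, a difference of 10.72 (SE 0.72, adjusted p = 9.80e-12). Tolerant roots moved from 0.89, 0.87 and 1.97 FPKM to 2134, 3432 and 2146 FPKM already at 8 h (10.16, SE 0.72, adjusted p = 3.81e-11, and 10.28 without the library against its label) and stood at 683, 1614 and 473 FPKM at 24 h. The 24 h libraries of the accessions were fully separated. In leaves the level at 24 h was 355, 404 and 578 FPKM in the tolerant and 430, 1938 and 1482 FPKM in the sensitive accession, and the non-stressed tolerant leaf that stood apart held 112 FPKM where its replicates held 0.65 and 0.73. The largest difference in tolerant leaves, at 48 h, was 6.16 (SE 1.06, adjusted p = 5.56e-05) with this library and 8.18 without it.

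LEA 14 (emFS18.941, chromosome 3, 33466964 to 33467956, minus strand) was listed at 0 in all 6 non-stressed root libraries. It rose at every salt time in roots and in sensitive leaves, and at 4 of 5 times in tolerant leaves. The highest leaf levels were those of 24 h, at 307, 187 and 80.1 FPKM in tolerant leaves (difference 6.54, SE 0.74, adjusted p = 5.99e-08, and 7.29 without the non-stressed library that stood apart) and 52.7, 172 and 38.9 FPKM in sensitive leaves (5.87, SE 0.74, adjusted p = 3.29e-07). In roots it was highest at 8 h in the tolerant accession, at 25.5, 41.4 and 32.8 FPKM. In sensitive roots it was highest at 24 h, at a mean of 26.4 FPKM (difference 4.76, SE 0.54).

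LEA ECP63 (emOS120.422, chromosome 3), a relative of a carrot embryonic cell protein, rose in leaves. It went from 1.11, 5.4 and 1.26 FPKM to 45.3, 31 and 37 FPKM at 24 h in tolerant leaves (3.62, SE 0.48, adjusted p = 7.76e-07, and 3.33 without the non-stressed library that stood apart) and from 1.68, 3.88 and 7.88 FPKM to 15.7, 33.8 and 40.2 FPKM in sensitive leaves (2.56, SE 0.48, adjusted p = 7.43e-05). In tolerant roots no library exceeded 0.47 FPKM, and in sensitive roots 1 library at 8 h held 9.82 FPKM beside 0.20 and 0.10 FPKM in its replicates. ECP63 did not pass the test in roots at any time.

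The other group 3 members were low genes. LEA 17 (emOS55.947, chromosome 1) rose in tolerant roots at 8 h, from 0.03, 0.12 and 0.34 FPKM to 4.87, 9.29 and 10.9 FPKM (2.95, SE 0.42, adjusted p = 2.48e-06, and 3.26 without the library against its label). In tolerant leaves it rose at 24 h, to 12.2, 6.65 and 2.75 FPKM (2.65, and 2.85 without the non-stressed library that stood apart). In sensitive roots it rose at 3 salt times, 12 h, 24 h and 5 days. It stood there at 3.37, 2.19 and 5.39 FPKM at 5 days against 0.10, 0 and 0.23 FPKM without salt (2.01, SE 0.42, adjusted p = 0.000395, and 1.76 without replicate 3). In sensitive leaves LEA 17 stayed at or under 1.5 FPKM in all libraries and did not pass the test. LEA 76 (emOS140.175, chromosome 6) was not tested in leaves, where its highest value was 0.55 FPKM. In sensitive roots LEA 76 went from 0, 0.06 and 0.06 FPKM to 25.5, 17 and 13.5 FPKM at 24 h (4.20, SE 0.62, adjusted p = 4.83e-06), and its tolerant root libraries of that time lay between 0.11 and 0.56 FPKM. In tolerant roots it rose at 8 h, from 0 in all 3 libraries to 2.88, 3.87 and 2.87 FPKM (2.06, SE 0.62, adjusted p = 0.00842, and 2.12 without the library against its label).

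**Figure D3:**
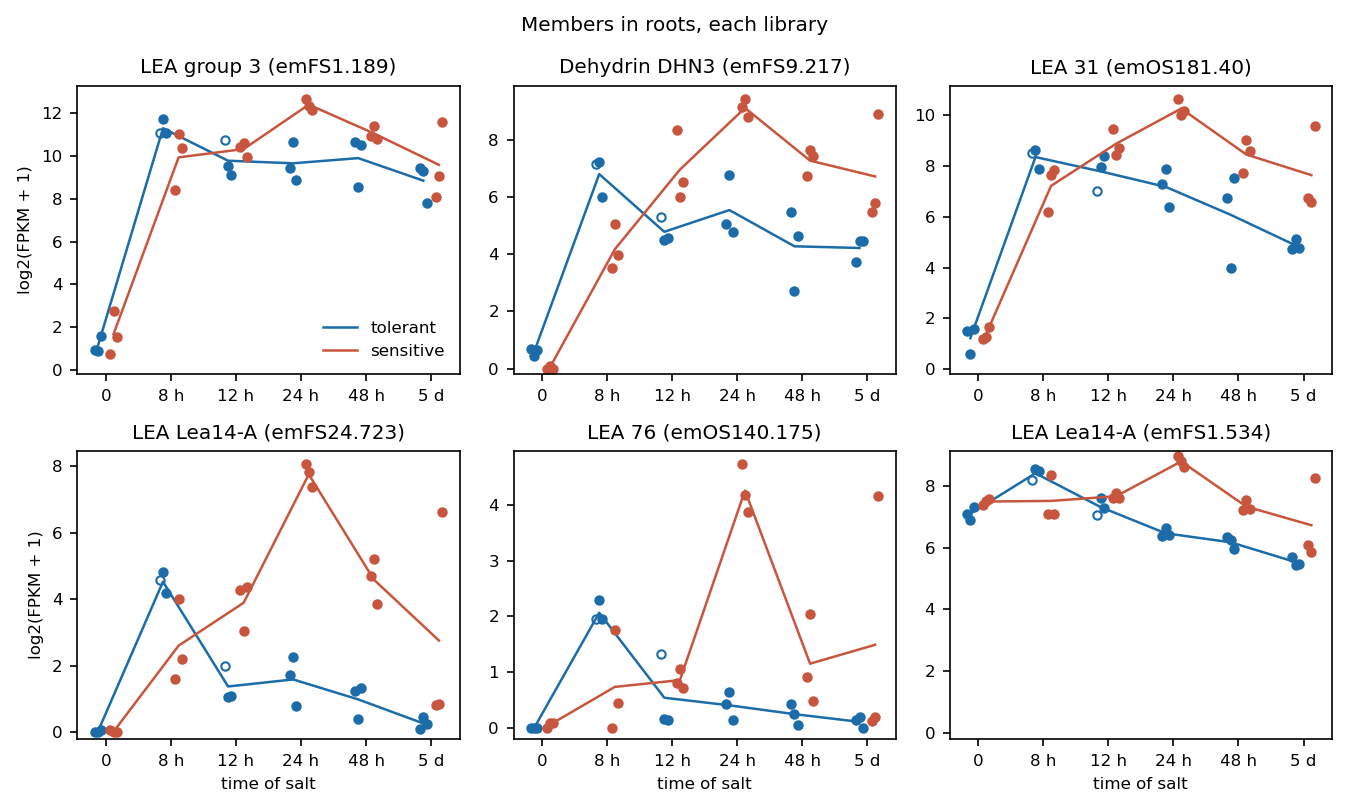
Level of 6 members in roots as log2(FPKM + 1) (y axis) against the time of salt (x axis); points are libraries, open points those that go against their accession label, and lines join the means of 3 libraries. In all 6 panels the mean is highest at 8 h in tolerant and at 24 h in sensitive roots, and emFS1.534, present without salt, declines in tolerant roots to 42.4 to 50.7 FPKM at 5 days.

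The Em genes were expressed in leaves only at a level that could be tested. LEA EMB564 (emOS106.196, chromosome 9, 30920236 to 30920787, plus strand), named after a maize embryo protein, was listed at 0 in the 3 non-stressed tolerant leaves. It stood at 30.0, 28.9 and 11.7 FPKM at 24 h there (4.50, SE 0.51, adjusted p = 6.24e-08) and at 49.4, 125 and 64.4 FPKM in sensitive leaves (6.20, SE 0.51, adjusted p = 2.40e-10), with no overlap between accessions. No root library exceeded 1.44 FPKM, in either accession. Its neighbour LEA B19.4 (emOS106.197), which lies 3639 bp beyond its end on the same strand, reached at most 2.5 FPKM and did not pass the test in leaves. Without the tolerant leaf library of 8 h that goes against its label, B19.4 rose in tolerant leaves at 8 h (1.5, SE 0.31, adjusted p = 0.000667).

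**Figure D4:**
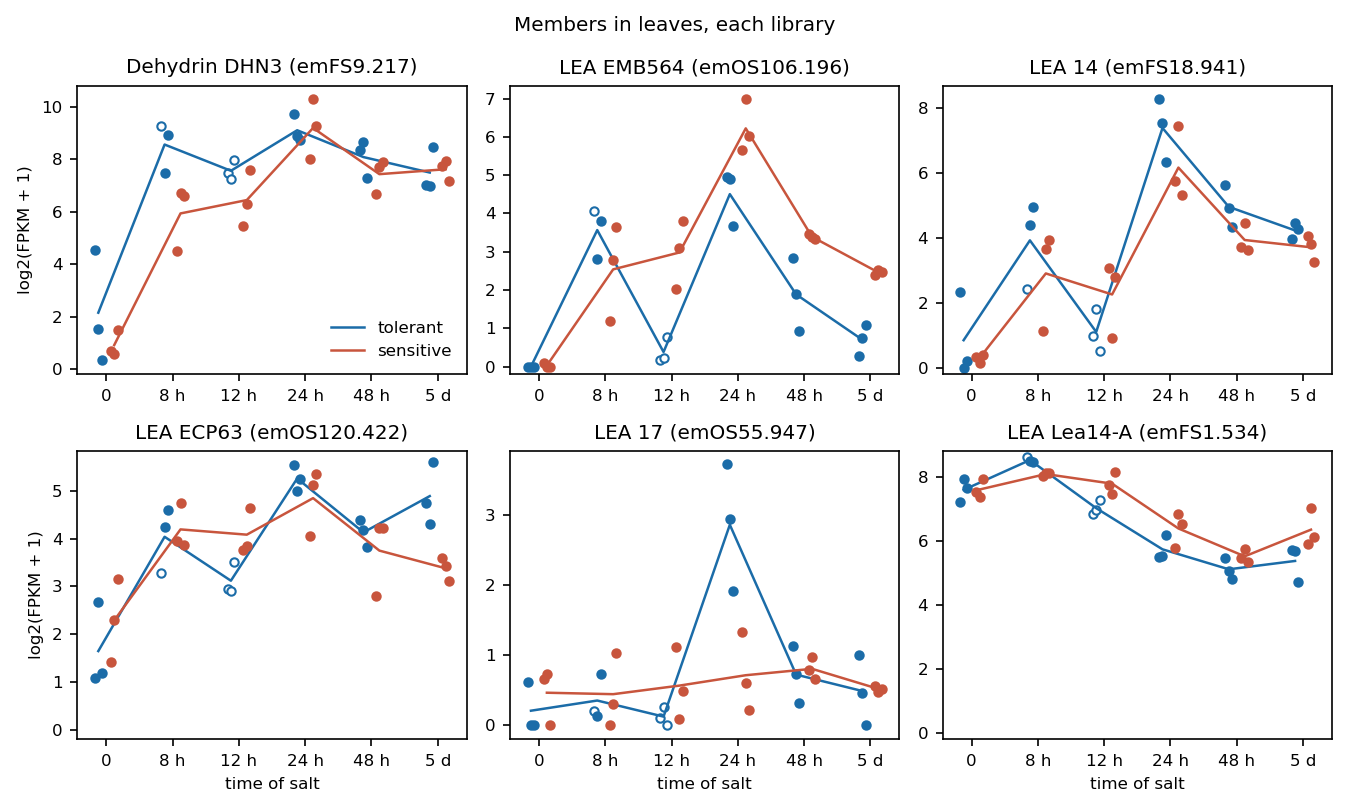
Level of 6 members in leaves as log2(FPKM + 1) (y axis) against the time of salt (x axis), drawn as for roots, with open points for the libraries that go against their accession label (all 3 labelled tolerant at 12 h). EMB564 and LEA 17 are separated between accessions at 24 h, in opposite directions, while DHN3 and ECP63 overlap there.

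LEA 18 (emOS140.315, chromosome 6, 6273821 to 6274390, minus strand), is the only member with an LEA group 1 domain. In tolerant roots it went from 0.36, 0 and 0.08 FPKM to 11.9, 16.7 and 11.5 FPKM at 8 h (3.64, SE 0.63, adjusted p = 3.90e-05, and 3.71 without the library against its label) and had returned to 0.07, 0.52 and 0.06 FPKM at 24 h. In sensitive roots, where it was listed at 0 without salt, it rose at 8, 12 and 24 h, and the level was highest at 24 h, at 25.3, 16.5 and 14.6 FPKM (4.27, SE 0.63, adjusted p = 4.42e-06). At 48 h sensitive roots held 0.41, 3.06 and 0.07 FPKM and at 5 days 0, 0 and 12.8 FPKM, the last in the library that stood apart. LEA 18 did not pass the test at either time. In leaves LEA 18 rose at 8 h in the tolerant (7.25, 4.81 and 10.9 FPKM; 2.74, 2.75 without the library against its label and 3.05 without the one that stood apart) and at 24 h in the sensitive accession (1.09, 6.03 and 1.41 FPKM), the latter call being lost without replicate 2 (1.17, adjusted p = 0.0258).

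The seed maturation family held 6 genes, whose products are abundant in ripe seeds of other plants, and 1 of them carried nearly all of its mRNA. LEA 31 (emOS181.40, chromosome 7, 28329365 to 28330663, plus strand) rose at every salt time in both tissues and accessions. In sensitive roots it went from 1.30, 1.39 and 2.12 FPKM to 1595, 1012 and 1127 FPKM at 24 h (8.89, SE 0.69, adjusted p = 1.33e-10), and in tolerant roots from 1.81, 0.51 and 1.99 FPKM to 363, 398 and 237 FPKM at 8 h (7.12, SE 0.69, adjusted p = 6.70e-09, and 7.04 without the library against its label). By 5 days tolerant roots had come down to 25.8, 33.6 and 25.9 FPKM. Its leaf levels at 24 h were 496, 366 and 332 FPKM in the tolerant and 407, 1035 and 629 FPKM in the sensitive accession. Without the non-stressed library that stood apart, the difference in tolerant leaves was 8.40 where it was 6.79 with it.

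LEA D-34 (emOS130.186, chromosome 1, 54982774 to 54984105, plus strand) was listed at 0 in all 6 non-stressed root libraries. Its level was 25.6, 18.3 and 17.5 FPKM in sensitive roots at 24 h (4.41, SE 0.63, adjusted p = 2.62e-06) and 0.24, 0.54 and 0.39 FPKM in tolerant roots, which had reached 5.06, 4.31 and 4.63 FPKM at 8 h. In tolerant leaves it rose at 8 h, to 1.92, 7.75 and 17.1 FPKM from 1.25, 0 and 0.11 FPKM (2.51, SE 0.53, adjusted p = 0.000496). The difference was 3.21 without the library against its label and 2.88 without the non-stressed library that stood apart. The other 4 seed maturation genes, emOS76.11, emOS76.12, emOS99.849 and emOS99.850, never exceeded 2.15 FPKM. Of these emOS76.11 was tested, in leaves, where it did not pass the test, and the other 3 were tested in neither tissue. They lie as close pairs, 78 bp apart on chromosome 10 and 1275 bp apart on chromosome 1.

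The most abundant members before salt belonged to the Lea14-A family and its kin. Of its 6 genes, 3 were present throughout: emFS1.534 (chromosome 9, 46671102 to 46672075, minus strand) at 118 to 245 FPKM in the non-stressed libraries of both tissues, emOS99.161 (chromosome 1) at 26.7 to 78.8 FPKM, and emOS99.1196, a hydroxyproline-rich glycoprotein of the LEA superfamily, at 12.8 to 29.9 FPKM in every library of the series. The last did not pass the test in any salt comparison, with differences between -0.22 and 0.73. The Lea14-A gene emFS1.534 had its highest mean at 8 h in tolerant leaves (369 FPKM), sensitive leaves (272 FPKM) and tolerant roots (342 FPKM). Its largest upward differences in these were 0.93, 0.48 and 1.31, under the threshold of 1.5, and at later times it fell. In tolerant leaves it went from 148, 242 and 200 FPKM to 42.9, 32.6 and 27.1 FPKM at 48 h (difference -2.48, SE 0.29, adjusted p = 2.31e-07, and -2.67 without the non-stressed library that stood apart). In sensitive leaves it went from 184, 163 and 245 FPKM to 43.7, 52.7 and 39.2 FPKM (difference -2.09, SE 0.29, adjusted p = 4.72e-06). In tolerant roots it fell at 5 days, to 50.7, 42.4 and 43.2 FPKM (difference -1.57, SE 0.36, adjusted p = 0.00214), and without non-stressed replicate 3 the difference was -1.46 and under the threshold. Its level in sensitive roots at 24 h was 498, 444 and 394 FPKM, above all of its other root libraries (difference from non-stressed roots 1.30, SE 0.36, adjusted p = 0.00513, under the threshold of 1.5).

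The second Lea14-A gene, emFS24.723 (chromosome 3, 311608 to 312431, plus strand), differed from its kin. Its non-stressed root libraries held at most 0.06 FPKM, and sensitive roots at 24 h held 267, 227 and 166 FPKM (7.74, SE 0.87, adjusted p = 7.54e-08). Tolerant roots stood at 22.9, 27.7 and 17.2 FPKM at 8 h (4.51, SE 0.87, adjusted p = 0.000144, and 4.48 without the library against its label) and at 2.32, 3.79 and 0.73 FPKM at 24 h. At 5 days sensitive roots held 0.76, 0.80 and 98.2 FPKM, and the rise called there (2.74, adjusted p = 0.0137) became 0.81 (adjusted p = 0.228) without replicate 3. In leaves emFS24.723 rose at 24 h in both accessions. The level went to 11.2, 6.34 and 4.42 FPKM from 1.54, 0 and 0 FPKM in the tolerant accession (2.53, SE 0.49, adjusted p = 0.000169, and 2.97 without the library that stood apart). It went to 2.29, 19.9 and 7.95 FPKM from 0, 0.08 and 0 FPKM in the sensitive accession (3.05, SE 0.49, adjusted p = 1.19e-05). The gene named At1g64065 after Arabidopsis (emFS18.1120, chromosome 3) fell in tolerant leaves at 5 days, from 7.84, 9.18 and 9.58 FPKM to 1.91, 0.80 and 0.66 FPKM (difference -2.26, SE 0.28, adjusted p = 6.30e-07, and -2.34 without the library that stood apart), and rose in sensitive leaves at 12 h, to 4.32, 13.5 and 9.30 FPKM from 2.08, 1.83 and 2.31 FPKM (1.59, SE 0.28, adjusted p = 0.000109). The latter difference was 1.27 without replicate 2 of 12 h. The third Lea14-A gene, emOS99.161, passed the threshold once, in tolerant leaves at 24 h (109, 90.9 and 85.1 FPKM against 35.5, 33.2 and 26.7 FPKM; 1.55, SE 0.25, adjusted p = 1.26e-05), and leaving out non-stressed replicate 3 or salt-treated replicate 1 took it to 1.44 or 1.45. Without the library that stood apart it was 1.64. The fourth, emFS18.482, never exceeded 0.91 FPKM.

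Lea5 (emOS55.1288, chromosome 1, 43662254 to 43663100, minus strand), of a family whose Arabidopsis member is found in mitochondria, was at or above 1 FPKM in all 72 libraries. In sensitive leaves it went from 3.41, 5.75 and 10.8 FPKM to 42.8, 54.7 and 63.7 FPKM at 8 h and to 29.1, 113 and 90.1 FPKM at 12 h (3.27, SE 0.67, adjusted p = 0.000555). At 24 h the sensitive leaf libraries spread from 2.59 to 42.9 FPKM and overlapped the non-stressed ones. In tolerant plants it was highest at 5 days, at 26.0, 25.1 and 35.1 FPKM in leaves (2.71, SE 0.67, adjusted p = 0.00315, and 2.65 without the non-stressed library that stood apart) and 49.0, 30.6 and 18.0 FPKM in roots (2.94, SE 0.71, adjusted p = 0.00326). Its rise in tolerant leaves at 8 h (1.82, adjusted p = 0.0357) was lost without the library against its label (adjusted p = 0.0947) and without the one that stood apart (adjusted p = 0.082). In sensitive roots it rose at 24 h, to 14.4, 30.3 and 19.0 FPKM from 3.21, 4.41 and 2.72 FPKM (2.28, SE 0.71, adjusted p = 0.0117). That call was lost in 1 of the 6 limma fits that each left out 1 of the libraries compared (highest adjusted p = 0.0523).

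Between accessions 10 of the 15 tested root members differed at 1 or more times (10.9% of all genes), and the largest differences were those of 24 h. There 9 of the 15 tested members were lower in tolerant than in sensitive plants, as were 1.81% of all tested genes, and 0 were higher (4.28% of all genes). At an unadjusted p under 0.05 limma gave 11 lower and 1 higher. The median difference of the tested members was -2.74, against 0.18 over all genes. The Lea14-A gene emFS24.723 differed most, by -6.17 (SE 0.87, 95% interval -7.96 to -4.38, adjusted p = 1.48e-05), followed by LEA 18 at -4.01, D-34 at -3.94, LEA 76 at -3.85, DHN3 at -3.57, LEA 31 at -3.08, LEA 14 at -2.87, LEA group 3 at -2.74 and emFS1.534 at -2.33. For each of these 9 genes all 3 sensitive libraries lay above all 3 tolerant ones, and without tolerant replicate 3 the call of LEA group 3 was lost (-2.36, adjusted p = 0.0569). Without salt limma called 0 root members between accessions (4.28% of all genes), with 2 higher in the tolerant accession at an unadjusted p under 0.05. Of the 15 tested members, 8 lay under 1 FPKM in every non-stressed root library and could not reach the threshold there. The count without salt thus speaks only for the other tested members.

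**Figure D5:**
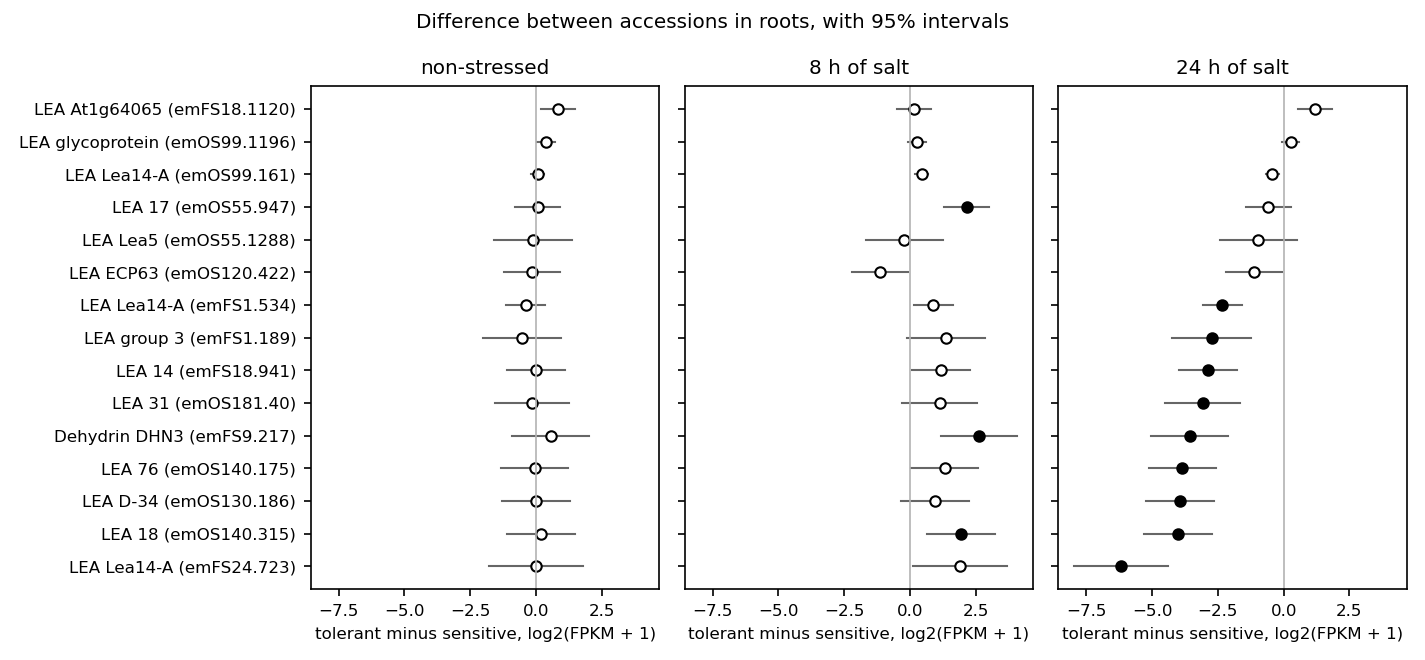
Difference between tolerant and sensitive roots in log2(FPKM + 1) (x axis) for the 15 tested members (rows) without salt, at 8 h and at 24 h; points are limma estimates from 3 libraries per group, bars 95% intervals, filled points pass the threshold. At 24 h 9 members lie at -6.17 to -2.33, and at 8 h 3 members lie at 1.94 to 2.63.

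The salt response, the change from non-stressed plants, was compared between accessions as well. For members near 0 before salt in both accessions this repeats the difference at 24 h and is not separate support. The value was the same in both comparisons for emFS24.723 (-6.17), D-34 (-3.94) and LEA 14 (-2.87). In roots at 24 h the salt response differed between accessions. It was smaller in the tolerant accession for 7 members (0.829% of all tested genes at this time, and 3.13% differed in either direction at some time), by -6.17 for emFS24.723, -4.19 for LEA 18, -4.13 for DHN3, -3.94 for D-34, -3.79 for LEA 76, -2.87 for LEA 14 and -1.93 for emFS1.534, with adjusted p from 0.00456 to 0.0307. All 7 held without the libraries against their label and without the libraries that stood apart. The latter fit called 8 members at 24 h, 1 at 12 h and 2 at 48 h, all with the smaller response in the tolerant accession. With all libraries the calls at 12 h and 48 h were 0 and 0. In the 12 fits that each left out 1 of the libraries compared, emFS24.723, LEA 18, D-34 and LEA 76 kept the call in every fit, DHN3 lost it in 2 (highest adjusted p = 0.0645), and LEA 14 and emFS1.534 lost it in 9 each (highest adjusted p = 0.0925 and 0.0895). Summed FPKM of the leaf markers lay between 392 and 486.5 in sensitive roots at 24 h and between 412.5 and 490.1 in tolerant ones. The leaf markers thus overlapped between the accessions. The 10 markers of dividing tissue (B-type cyclins and histone H4) did not overlap there. They summed to 623.8 to 686.4 FPKM in tolerant and 384.3 to 465.1 FPKM in sensitive roots, and their part in the comparison was not tested. Genes named as seed storage proteins or globulins, 15 in number, went the other way from the members there, at 1916 to 2467 FPKM in tolerant and 256.5 to 380.2 FPKM in sensitive roots, and their part in the comparison was not tested.

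At 8 h the order was the opposite for a few members. In roots 3 were higher in the tolerant accession (1.67% of all genes): DHN3 by 2.63 (SE 0.71, adjusted p = 0.0166), LEA 17 by 2.17 (SE 0.42, adjusted p = 0.00128) and LEA 18 by 1.94 (SE 0.63, adjusted p = 0.0425). Without the libraries that stood apart 4 members were higher. Without the tolerant library of 8 h that goes against its label only LEA 17 stayed past the threshold (2.47), and DHN3 (adjusted p = 0.0512) and LEA 18 (adjusted p = 0.0709) did not. The salt response at 8 h was called as different for 0 root members (1.27% of all genes), with 4 at an unadjusted p under 0.05, and without that library LEA 17 (emOS55.947) was called (2.41, adjusted p = 0.0228). Among sensitive roots of 8 h, replicates 1 and 3 held 1306 and 2671 FPKM of leaf markers and replicate 2 held 367, and the part of this in the comparison was not tested.

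The differences of later root times were fewer. At 48 h emFS24.723 (-3.60), DHN3 (-2.999) and LEA 31 (-2.37) were lower in the tolerant accession (0.942% of all genes). At 5 days LEA 31 (-2.77), LEA 14 (-2.52) and DHN3 (-2.50) were lower (1.11%), and without the sensitive library that stood apart only LEA 14 remained (-1.60), while Lea5 was higher in the tolerant accession (emOS55.1288, 2.67, adjusted p = 0.0033). That library, replicate 3 of sensitive roots at 5 days, held 3103 FPKM of LEA group 3 against 272 and 531 FPKM in its replicates, and it held the least leaf marker mRNA of the 3 (363 against 1520 and 526 FPKM). At 12 h limma called 0 members between accessions (0.955% of all genes), with 2 lower at an unadjusted p under 0.05. Without the libraries that stood apart, emFS24.723 (-2.52) and DHN3 (-2.18) were lower at 12 h.

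In leaves 7 of the 17 tested members differed between accessions at 1 or more times, where 9.41% of all genes did. At 8 h 5 were higher in the tolerant accession (3.12%): DHN3 by 2.63 (SE 0.78, adjusted p = 0.0203), At1g64065 by 2.34, LEA 18 by 2.25, D-34 by 2.02 and emFS24.723 by 1.73. Leaving out the library against its label left 3 of them, At1g64065 (2.33), D-34 (2.72) and LEA 18 (2.26). Without the library that stood apart LEA 31 (emOS181.40) was called too (1.57). Leaf markers moved with this comparison: they summed to 1537 to 2630 FPKM in tolerant leaves at 8 h and to 8539 to 9326 FPKM in sensitive ones, and their part in it was not tested. At1g64065 was also higher in tolerant leaves without salt (7.84, 9.18 and 9.58 against 2.08, 1.83 and 2.31 FPKM; 1.68, SE 0.28, adjusted p = 0.00024, and 1.76 without the library that stood apart), where 0.816% of all genes were.

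EMB564 (emOS106.196) was lower in the leaves labelled tolerant at 12 h (-2.60, SE 0.51, adjusted p = 0.00133, 1.29% of all genes), and it was lower in tolerant leaves at 24 h (-1.72, SE 0.51, adjusted p = 0.0304, 0.843% of all genes) and at 5 days (-1.76, SE 0.51, adjusted p = 0.0432, 0.9%), when it stood at 0.21, 0.67 and 1.12 FPKM in tolerant and 4.23, 4.76 and 4.53 FPKM in sensitive leaves. Without the libraries against their label the adjusted p at 5 days was 0.0574. LEA 17 was higher in tolerant leaves at 24 h by 2.14 (SE 0.37, adjusted p = 0.000247, 1.45% of all genes), at 12.2, 6.65 and 2.75 FPKM against 1.5, 0.51 and 0.16 FPKM. The salt response of leaves differed between accessions for 3 members, LEA 18 at 8 h (1.94, adjusted p = 0.0464, 1.63% of all genes), EMB564 at 12 h (-2.57, adjusted p = 0.0482, 0.953%) and LEA 17 at 24 h (2.40, adjusted p = 0.0248, 0.169%), where 5.8% of all genes differed at some time. These 3 calls were lost in 8, 11 and 8 of the 12 fits that left out 1 library, and the 3 tolerant libraries of 12 h all go against their label. Without the libraries against their label LEA 18 (emOS140.315) lost the call (adjusted p = 0.0765) and LEA 17 (emOS55.947) kept it. Without the library that stood apart EMB564 lost it (adjusted p = 0.0734) and the others kept it. D-34 (emOS130.186) at 8 h was called in both of these fits (2.90 and 2.56). Leaf levels at 48 h gave 0 calls between accessions (1.69% of all genes), with 1 higher and 1 lower at an unadjusted p under 0.05.

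Before salt few of these genes passed the threshold between tissues. Genes under 1 FPKM in both tissues could not reach a difference of 1.5 on this scale. Of the 14 members tested in a fit of the 24 libraries of non-stressed and 5-day plants, 2 were lower in tolerant roots than leaves (24% of all genes differed), At1g64065 (-1.66) and ECP63 (-1.64), and 1 in sensitive roots, ECP63 (-2.13, 23.7% of all genes). Under the threshold, emOS99.161 was higher in tolerant roots than leaves by 1.25 (limma, adjusted p = 1.78e-05). In the sensitive accession this difference was 0.41 (adjusted p = 0.087). The salt response differed between root and leaf at some time for 8 of 18 members in the tolerant (28.7% of all genes) and 7 of 18 in the sensitive accession (27.4%), shares that do not stand far from those of all genes. EMB564 responded in leaves more than in roots at 24 h, with a root minus leaf difference of -4.47 (tolerant, adjusted p = 1.81e-08) and -5.54 (sensitive, adjusted p = 6.79e-11). ECP63 (emOS120.422) did so in the tolerant accession (-3.44 at 24 h, adjusted p = 0.000225, and -3.15 without the library that stood apart). In the sensitive accession its difference passed the test at no time (-1.42 at 24 h, adjusted p = 0.119). In sensitive plants at 24 h 6 members responded more in roots (8.27% of all genes): emFS24.723 by 4.69, LEA 76 by 3.89, D-34 by 3.10, LEA 18 by 2.55, emFS1.534 by 2.52 and LEA 17 by 1.5. LEA 14 (emFS18.941) responded more in tolerant leaves than roots at 24 h (root minus leaf -4.65, SE 0.93, adjusted p = 0.000119) and at 48 h (-2.57, adjusted p = 0.0386). It went the other way at 12 h (2.94, adjusted p = 0.011), where the leaf libraries all go against their label. Without the library that stood apart these were -5.40, -3.32 and 2.19, and all 3 were called. LEA group 3 (emFS1.189) responded more in tolerant roots at 8 h (4.08, SE 1.31, adjusted p = 0.0136) and 12 h (3.88, adjusted p = 0.0173). Neither was called without the library that stood apart (2.06, adjusted p = 0.126, and 1.86, adjusted p = 0.166). In that fit DHN3 (emFS9.217) and LEA 31 (emOS181.40) also responded more in tolerant leaves at 24 h (-3.20 and -2.44). At 48 h and 5 days 5 and 4 of the 18 members did so in that fit, against 3 (16.7%) and 1 (5.56%) with all libraries. Of all genes 7.28% and 3.14% did so with all libraries, and the 5-day count with all libraries is near that share.

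Genes of ABA synthesis and signalling and of other water-deficit proteins were set beside the members, from lists fixed by name. Over all tested genes 15.3% rose and 11.7% fell at 1 or more times in tolerant leaves, 10.4% and 17.5% in sensitive leaves, 9.77% and 9.46% in tolerant roots and 11.9% and 11.4% in sensitive roots. Of 6 ABA synthesis genes, 3 rose and 2 fell in leaves of each accession, and 3 rose and 1 fell in roots. NCED4 (emFS27.434), a 9-cis-epoxycarotenoid dioxygenase of the step that limits ABA synthesis, rose in 17 of the 20 salt comparisons, by 2.08 to 5.55, and a second such gene, emOS43.45, in 15, by 1.51 to 4.57. The gene named NCED1 (emOS174.323) fell in 10, by -4.37 to -1.60. Of 5 ABA breakdown genes 4 were tested, and 1 rose in tolerant leaves and 1 fell in sensitive roots.

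Of 19 ABA receptors and SnRK2-type kinases, 16 were tested in leaves and 17 in roots, and those that fell (3 to 4 in each tissue and accession) were as many as or more than those that rose (1 to 3). The receptor PYL8 (emFS26.414) fell in 14 salt comparisons, by -4.59 to -1.70, PYL4 (emOS55.787) fell in 12, and the kinase SAPK4 (emFS4.383) rose in 13, by 1.60 to 3.24. Among 8 ABA transcription factors 2 rose and 0 fell in tolerant leaves, with 1 that rose and 1 that fell in sensitive leaves and in roots of each accession. A gene named ABI5-like protein 2 (emFS18.1926), of the bZIP class that activates LEA genes, rose in 13 comparisons by 1.62 to 2.84. Another 2 genes of that name, emFS4.2032 and emOS55.944, fell in 2 and 3 comparisons. Of 38 other water-deficit proteins, 13 of the 29 tested rose in tolerant leaves, 10 of 29 in sensitive leaves, 11 of 31 in tolerant roots and 6 of 31 in sensitive roots, and 3 to 5 fell. Cold-regulated 413 (emOS99.702), a membrane protein, rose in 19 comparisons by 1.62 to 4.18, while the desiccation-related protein PCC13-62 (emOS55.1090) fell in 15, by -4.37 to -2.11.

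Markers of other states were listed too. Of 11 senescence markers, 3 of 8 tested rose and 3 fell in tolerant leaves, 5 rose and 3 fell in sensitive leaves, and 4 of 9 rose and 1 fell in roots of each accession. Pheophorbide a oxygenase (emOS80.82) rose in 19 comparisons by 1.64 to 5.09. STAY-GREEN (emOS91.722), which acts in chlorophyll breakdown, rose in 16 comparisons by 1.51 to 4.84. The list also holds genes named SAG21, an LEA protein in Arabidopsis, so it is not independent of the family. Of these emOS120.228 rose in 16 comparisons and emOS120.227 fell in 1. The gene named senescence-associated protein 13 (emOS108.56) fell in 4 and STAY-GREEN LIKE (emFS6.536) in 2. Of the 10 markers of dividing tissue, 2 rose and 1 fell in tolerant leaves, and 0 rose and 7 fell in sensitive leaves. In roots 1 rose and 2 fell in the tolerant accession, and 0 rose and 0 fell in the sensitive accession. Of the 15 genes named as seed storage proteins or globulins, 4 were tested in leaves and 7 in roots. Of the 15, 1 was listed at 0 in all leaf libraries and 1 in all root libraries. In each tissue and accession 2 to 4 rose, and 1 fell in sensitive roots. The 15 genes summed to 21.6 to 507.8 FPKM in leaves and to 51.8 to 6680 FPKM in roots. The part of any of these lists in the members' values was not tested.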

How the data were processed

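Total RNA of leaves and roots was sequenced in 72 libraries (24 groups of 3). The submitters' processing notes name Trimmomatic 0.32 and HISAT2 2.1.0, and the deposited values were FPKM per gene, made by the authors. The methods speak of RPKM, no source used here names the genome build or strand setting, and the authors' count test (DESeq2) was not repeated, as whole counts were not analysed here. Every column of values was assigned to a library.

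Here, log2(FPKM + 1) was fitted in limma 3.58.1 (R 4.3.3, with trend), with 12 groups per tissue in 36 libraries, 24 libraries for root against leaf without salt, and 72 libraries for the difference of the salt response between tissues. Genes needed at least 1 FPKM in at least 3 libraries. A call needed a Benjamini-Hochberg adjusted p of at most 0.05 over all tested genes and a log2 difference of at least 1.5 in size, the thresholds of the methods. The code was tested on simulated data. The p-values rest on the spread of libraries within groups, pooled over all groups of a fit. They do not measure the spread of the compared groups of 3 libraries alone.

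Members and lists were chosen with earlier results of these data known. Named with values were, per tissue and accession, the 10 members called at the most salt times, the 10 largest differences between accessions, the members whose salt response differed, and the most abundant member of each family. Members sharing a name may share reads. Other pseudocounts, filters, scalings, thresholds, blocks, weights and left-out libraries were tried. Figures were drawn in matplotlib 3.10.9 (Python 3.11.15).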

Additional observations from a re-analysis of the deposited data

Results flagged for a closer look

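The salt response of 10 gene and time pairs differed between the accessions by the limma test of the difference itself, given as tolerant minus sensitive on the log2(FPKM + 1) scale. In roots at 24 h these were emFS24.723 (Lea14-A type) at -6.17 (adjusted p = 0.00456), LEA 18 (emOS140.315) at -4.19 (adjusted p = 0.00713), DHN3 (emFS9.217) at -4.13 (adjusted p = 0.0175), D-34 (emOS130.186) at -3.94 (adjusted p = 0.0104), LEA 76 (emOS140.175) at -3.79 (adjusted p = 0.013), LEA 14 (emFS18.941) at -2.87 (adjusted p = 0.03) and emFS1.534 at -1.93 (adjusted p = 0.0307). In leaves they were LEA 18 at 8 h (1.94, adjusted p = 0.0464), EMB564 (emOS106.196) at 12 h (-2.57, adjusted p = 0.0482) and LEA 17 (emOS55.947) at 24 h (2.40, adjusted p = 0.0248). The groups of 3 libraries were too small for a test of single libraries that stand apart.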

How the results depend on the processing

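Of 73 named changes, 0 reversed under any alternative run, and in the fits that left out 1 library 437 values kept their call and 61 lost it. A pseudocount of 5 lost 23 of the 73, one of 0.1 lost 4, no filter and median-ratio scaling 2 each, and leaving out the libraries against their label 3 of 71. A fold threshold of 1 could lose none of the 73, being the same fit at a lower threshold. Array weights and leaving out the libraries that stood apart lost 1 each. The fit of 18 libraries and a mean of at least 5 FPKM gave values for 46 of the changes each and lost 1 of them. Both of these exclusions of libraries were chosen after the data were seen. Median-ratio scaling brought the median over all genes to between -0.07 and 0.08.

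Counts of members moved as follows. With a pseudocount of 0.1 the salt response differed between accessions in leaves for 1 member (3 as reported), and 2 differed between root and leaf in the sensitive accession (1 as reported). With a pseudocount of 5, 7 members rose and 1 fell in tolerant leaves (12 and 2 as reported), 0 fell in tolerant roots (1), 4 differed between accessions in leaves (7), 0 had a different salt response in leaves (3), 0 and 0 differed between root and leaf (2 in tolerant, 1 in sensitive), and 5 responded differently between tissues in the tolerant accession (8). With no filter, and with median-ratio scaling, the leaf response differed for 1 member. A mean of at least 5 FPKM gave 6 members that rose in tolerant and 6 in sensitive roots (10 each), 6 between accessions in roots (10) and 3 in leaves (7), 4 and 0 for the response in roots and leaves (7 and 3), 1 between root and leaf in tolerant plants, and 5 and 3 for the response between tissues (8 and 7), with fewer members tested. Array weights gave 9 and 11 members for the response in leaves and roots, 1 that fell in sensitive roots and 1 between root and leaf in tolerant plants. Without the libraries that stood apart 1 member fell in sensitive roots.

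Leaving out 1 library gave ranges. Members that rose were 11 to 13 in tolerant leaves, 9 to 11 in sensitive leaves, 10 to 10 in tolerant and 9 to 11 in sensitive roots, and those that fell 2 to 2, 1 to 1, 0 to 1 and 0 to 1. Between accessions the range was 5 to 9 in leaves and 9 to 11 in roots, and for the response 0 to 4 in leaves (0 without non-stressed tolerant replicate 2) and 4 to 8 in roots (4 without tolerant 24 h replicate 1). Between root and leaf it was 1 to 3 in tolerant and 1 to 1 in sensitive plants, and for the response between tissues 7 to 8 and 7 to 9. At 5 days 8 to 8 members were called in tolerant leaves, 5 to 6 in sensitive leaves, 4 to 6 in tolerant roots (6 as reported) and 6 to 10 in sensitive roots (10 without replicate 1 and 9 without replicate 2, 6 as reported). Fits of non-stressed and 5-day plants alone, with 12 libraries and no library left out, gave 8, 6, 5 and 5.

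The replicate block was fitted because groups share replicate numbers, but the numbers did not pair the libraries: correlations of the deviations over 0.1 were found in 68 of 198 same-numbered pairs in leaves and 48 of 198 in roots, and 12 and 11 of 36 libraries were closest to their own number. With the replicate block every count of members was the same as without it (12, 10, 10 and 10 that rose in tolerant leaves, sensitive leaves, tolerant roots and sensitive roots), and of the named changes only the response of EMB564 in leaves at 12 h lost its call (adjusted p = 0.0584). The depth behind low FPKM values is unknown, so a value listed at 0 is not an absence.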

Other observations

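Genes with related Pfam domains lay outside the naming rule, and those with values below were picked with their values in view. There were 65 with the domain "Late embryogenesis abundant protein", 3 with LEA group 1, and 1 each with a dehydrin, an LEA 18 and a small hydrophilic seed protein domain. The dehydrin CS120 (emFS9.219) lay at 28.9 to 76 FPKM in sensitive roots at 24 h and at 0.64 to 3.12 FPKM in tolerant ones. An LEA group 1 gene without a name (emFS24.628) lay at 283 to 424 FPKM in sensitive and 9.10 to 23.8 FPKM in tolerant roots at 24 h, from at most 0.25 FPKM without salt. The third, LE25 (emOS103.16), lay at 133 to 201 FPKM and 3.05 to 6.66 FPKM. In each of these 3 genes all sensitive libraries lay above all tolerant ones, which was not tested. The LEA group 1 gene emFS22.453 was separated too (14.9 to 49.35 against 1.89 to 4.79 FPKM). The seed protein gene emFS24.250 (1.35 to 7.49 against 0.28 to 1.37 FPKM) and the LEA 18 gene emOS91.403 (0 to 0.51 against 0 to 0.48 FPKM) overlapped. No values of the 65 genes are given here. SAG21 (emOS120.228), named for senescence and an LEA protein in Arabidopsis, rose in 16 of the 20 salt comparisons.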
